A study of Mus musculus with 18 samples.

Results

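Metallothioneins are small cysteine-rich proteins that bind zinc, copper and cadmium, and Mt1 and Mt2 are the forms that most mouse tissues make. The 7 genes described here are these 2 metallothioneins, the zinc-sensing transcription factor Mtf1, the zinc exporter Slc30a1 and the zinc importers Slc39a6, Slc39a8 and Slc39a14. They are 7 of the 19030 genes that carry a single symbol on the array. All 11 probes that the platform annotation assigns to 1 of these genes were read, and 10 of them, from all 7 genes, were bright enough to be tested. Mt2 was chosen by its measured signal, which was lower in cells without JNK than in wildtype, so its genotype differences are a description with no test, and the other 6 genes were listed with results of these data known.

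Zinc that enters a cell through transporters of the Slc39 (ZIP) family, or is released inside it, is bound by MTF1. MTF1 then binds metal response elements in promoters and switches on the metallothionein genes and Slc30a1, so that free zinc is buffered or pumped out. Metallothionein genes are also known to respond to glucocorticoids and to oxidative stress. JNK1 and JNK2 are stress-activated kinases that phosphorylate Jun, a subunit of the transcription factor AP-1.

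The cells were immortalised 3T3 fibroblasts from mouse embryos (stage E10.0, BL6/129/Sv background), either JNK1,2 wildtype or lacking both kinases (jnk1-/-jnk2-/-, called KO). They grew on culture inserts in FAD medium, a keratinocyte medium with insulin, hydrocortisone, cholera toxin and EGF, and the medium was the same for all groups. RNA was taken before co-culture (day 0) or after co-culture with differentiating primary human keratinocytes, during which the inserts were exchanged every second day, for samples of days 2, 4 and 6. A fibroblast sample of day 6 had therefore shared only the last interval with the keratinocytes. Single-colour Illumina bead arrays measured 18 samples, 9 per genotype, of which day 0 had 1, days 2 and 4 had 2 each and day 6 had 4. The RNA on an array came from 1 insert or from a pool of 2 or 3. As the labels describe them, the cells of a genotype are 1 previously published line, so p-values measure the spread between inserts of 1 line, and a difference between lines that is unrelated to JNK cannot be told apart from the genotype.

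Mean intensity per array was 392 to 482 on 12 arrays and 581 to 653 on the other 6, which were replicates 2, 3 and 4 of day 6 in both genotypes and whose detection p-values were of another kind. These 6 are called the second processing set and the other 12 the first. The normalized log2 signal of Mapk9, the JNK2 gene, was 10.07 to 10.49 in wildtype and 4.51 to 5.60 in KO. That of Mapk8, the JNK1 gene, was 5.44 to 6.47 and 5.71 to 6.36, and the deleted part of the gene is not given, so this probe checks nothing. Of 11 fibroblast markers, 8 were detected on all wildtype and 7 on all KO arrays, and Thy1 on no KO array. The summed signal of the 11 was 18623 to 41139 in wildtype and 13178 to 38715 in KO. Of 5 simple epithelial markers Krt18 and Krt19 were detected on wildtype but on no KO array and Epcam on no array, and the sum was 346 to 1299 in wildtype and 109 to 171 in KO. The sums of 7 keratinocyte markers overlapped (751 to 1066 and 592 to 1027; Krt1 and Krt14 were detected on no wildtype array and Dsg3 on no array), as did those of 4 endothelial markers (91.0 to 140.2 and 79.3 to 111.6) and 4 macrophage markers (83.3 to 122.3 and 81.2 to 121.5), with Pecam1 and Lyz2 detected on no array. The part of these markers in the results was not tested. In such bulk RNA, fewer cells with a transcript and less of it per cell cannot be told apart.

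The promoters of the 2 metallothionein genes and of Slc30a1 are shown because these genes carry the elements that MTF1 is known to bind. Each window runs from 250 bases before to 50 after 1 annotated start of the gene (RefSeq, GRCm38.p6, plus strand). Capitals mark the core of the metal response element, searched as TGCACNC and TGCGCNC on both strands. The windows are chr8:94172368-94172667 for Mt2, chr8:94178839-94179138 for Mt1 and chr1:191906531-191906830 for Slc30a1.
Mt2: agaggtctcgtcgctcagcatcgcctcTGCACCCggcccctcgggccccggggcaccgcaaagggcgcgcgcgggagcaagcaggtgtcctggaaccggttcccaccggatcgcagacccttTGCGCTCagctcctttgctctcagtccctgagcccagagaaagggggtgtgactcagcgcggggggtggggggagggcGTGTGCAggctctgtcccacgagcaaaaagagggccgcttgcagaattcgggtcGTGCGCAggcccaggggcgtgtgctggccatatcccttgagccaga
Mt1: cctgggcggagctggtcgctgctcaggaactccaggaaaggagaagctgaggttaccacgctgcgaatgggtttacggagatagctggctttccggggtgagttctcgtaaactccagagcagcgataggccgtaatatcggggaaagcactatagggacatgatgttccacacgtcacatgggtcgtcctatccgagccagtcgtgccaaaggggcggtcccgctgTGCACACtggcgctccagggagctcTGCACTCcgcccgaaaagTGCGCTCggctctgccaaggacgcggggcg
Slc30a1: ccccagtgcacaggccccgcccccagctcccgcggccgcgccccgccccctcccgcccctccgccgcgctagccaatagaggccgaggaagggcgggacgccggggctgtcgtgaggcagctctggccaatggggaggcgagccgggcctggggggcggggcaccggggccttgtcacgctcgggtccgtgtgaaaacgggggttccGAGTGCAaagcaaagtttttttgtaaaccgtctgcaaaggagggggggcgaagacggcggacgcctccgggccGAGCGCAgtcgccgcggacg
The Mt2 window held 4 cores, which began at positions -223, -128, -50 and 5 from the start. The Mt1 window held 3, at -23, 3 and 21, and the Slc30a1 window held 2, at -43 and 31. Of 32851 promoter windows in the same table, 25.7% held at least 1 core and 0.518% held 4 or more. The AP-1 site, searched as TGANTCA, occurred once, in the Mt2 window at -79, against 7.81% of all windows. That match lies inside a match to the antioxidant response element, searched as TGACNNNGC, which 12.4% of all windows held, among them that of Slc30a1. RefSeq windows were found for 5 of the 7 genes. The Mtf1 window held none of these motifs, and of the 2 windows of Slc39a8, 1 held a single metal response core and the other a single antioxidant element. A match is a run of letters and not a measured site, and the count depends on which start the table gives. The first annotated base of Mt1 (94178883) and that of Slc30a1 (191906697) lie inside their windows, so another annotated start was used there. Their positions and missing motifs hold for those starts only, and bases past the windows were not searched.

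Mt1 was lower on every KO array than on any wildtype array, by about 11-fold at day 6. Its probe (ILMN_2596522) read 14.67 (normalized log2 signal) on the wildtype array of day 0, 14.81 and 14.98 at day 2, 14.70 and 14.89 at day 4, and 14.91, 14.78, 14.69 and 14.67 at day 6. On the KO arrays it read 10.84 at day 0, 11.14 and 11.003 at day 2, 11.17 and 11.35 at day 4, and 11.31, 11.97, 11.18 and 10.51 at day 6. The 9 wildtype values lay close together (SD 0.12), while the KO values spread widest at day 6, and a gap of 2.70 separates the genotypes. The difference (KO minus wildtype, log2 ± standard error) was -3.52 ± 0.19 at day 6 (limma, adjusted p = 1.68e-11), -3.54 ± 0.27 at day 4 (adjusted p = 7.66e-09) and -3.83 ± 0.27 at day 2 (adjusted p = 2.63e-09). These are folds of 11.5, 11.6 and 14.2, and over the mean of the 3 days the difference was -3.63 ± 0.14 (adjusted p = 4.69e-14). At day 0, with 1 array per genotype and no test, it was -3.83. The signal remained far above background in KO, at intensities of 1616 to 5179. In wildtype it reached 67.6% to 96.0% of the brightest reading of the array, near the upper end of the scale. Whether readings this high narrowed the wildtype spread, the fold or changes between days was not tested.

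Mt2 was lower on every KO array as well, and this is the value for which it was picked. Its probe (ILMN_1219154) read 9.10 on the wildtype array of day 0, 9.70 and 9.78 at day 2, 10.41 and 9.88 at day 4, and 10.70, 10.12, 10.33 and 10.09 at day 6. The KO arrays read 5.80 at day 0, 6.15 and 5.94 at day 2, 5.49 and 5.86 at day 4, and 5.91, 5.99, 6.07 and 6.05 at day 6. The lowest wildtype value, at day 0, stood 2.95 above the highest KO value. The difference was -4.31 ± 0.17 at day 6, -4.47 ± 0.23 at day 4 and -3.70 ± 0.23 at day 2, with a mean over these days of -4.16 ± 0.12, and it was -3.30 before co-culture. The KO intensities of 146 to 197 were detected on all 9 arrays but lay close to the background, so the fold depended on how that background was removed. It was 19.8 at day 6 with background correction and 7.61 without it, 22.2 and 7.37 at day 4, and 12.98 and 5.27 at day 2.

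**Figure D1:**
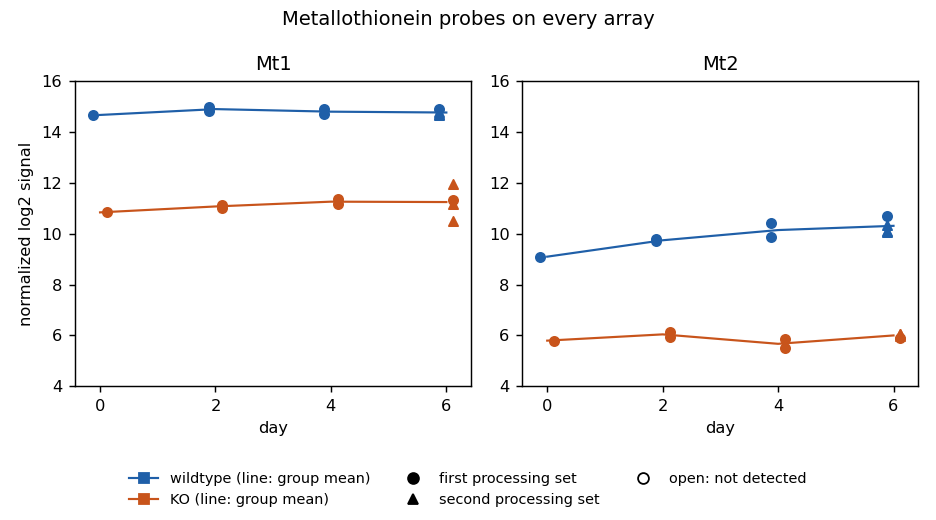
Normalized log2 signal of the Mt1 and Mt2 probes (vertical axes) by day (horizontal axes) on each of 18 arrays, wildtype in blue and KO in orange, with lines through group means and triangles for the second processing set. For both genes every KO array lies below every wildtype array, with gaps of 2.70 for Mt1 and 2.95 for Mt2.

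The metallothionein genes stand side by side on chromosome 8, in the order Mt4, Mt3, Mt2, Mt1 (RefSeq, GRCm38.p6). Mt3, a form best known from brain, was seen on all 9 wildtype arrays and on 0 of the KO arrays. At day 6 it ran from 6.51 to 7.72 in wildtype and from 4.11 to 4.30 in KO, and it was at least 5.41-fold lower (adjusted p = 2.46e-08), with the KO arrays raised to their lowest detected signal. Mt3 entered the test through the wildtype arrays alone, and without background correction its fold was 2.01. Mt4, a form known from stratified epithelium, was dim in both genotypes, with detection on 9 arrays of wildtype and 4 of KO. It ran from 5.50 to 6.31 and from 4.90 to 5.37, a difference of -0.84 ± 0.21 (adjusted p = 0.00507), which was 1.19-fold without background correction in place of 1.79-fold. The probes' sequences were not used here, so whether RNA of one metallothionein bound the probe of another was not tested. Of the nearest protein-coding genes on the Mt4 side, Bbs2 was at -0.11 ± 0.17 and Ogfod1 at -0.92 ± 0.15. On the Mt1 side Nup93 was at -0.51 ± 0.13 and Slc12a3 at 0.21 ± 0.12. Nup93 and Slc12a3 each had 2 probes past the detection filter, and only the brightest of each is given. These 4 neighbours were chosen after the metallothionein values were seen and their differences are given with no test. By these probes Ogfod1 lay as far below 0 as Mt4, and Mt1, Mt2 and Mt3 lay farther below 0 than all 4 neighbours.

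**Figure D2:**
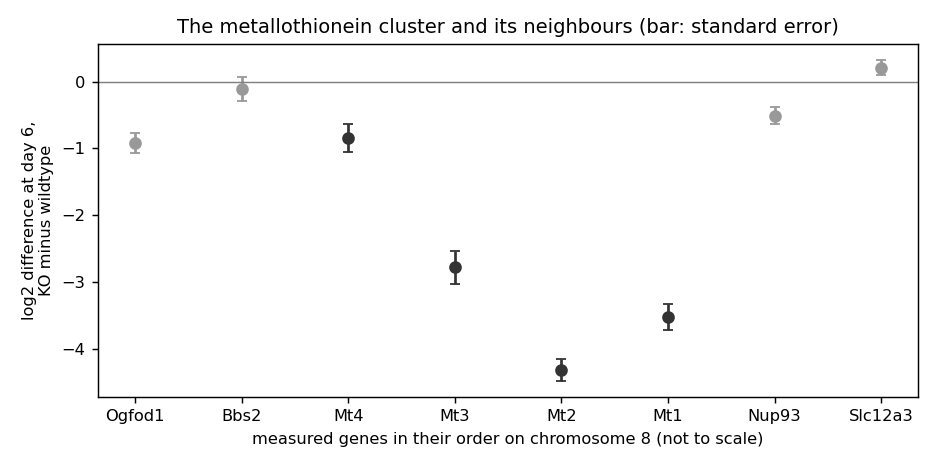
Log2 difference at day 6, KO minus wildtype (vertical axis), by the brightest probe of each gene, with bars for standard errors. Genes are the 4 metallothioneins (black) and 2 neighbours on each side (grey) in chromosomal order, not to scale. Mt2 lies at -4.31, Mt1 at -3.52 and Mt3 at -2.78, while the 4 neighbours lie between -0.92 and 0.21; Mt3 was detected on 0 KO arrays, so its fitted value is less certain than its bar shows.

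Mtf1, the regulator of this response, was represented by 3 probes that disagreed. Probe 1 (ILMN_2544252), which is annotated to a cDNA clone, was higher in KO. It read 8.14 at day 0, 8.01 and 8.04 at day 2, 8.46 and 7.95 at day 4, and 7.85, 7.04, 7.01 and 7.88 at day 6 in wildtype. In KO it read 8.99 at day 0, 9.29 and 9.10 at day 2, 8.96 and 9.28 at day 4, and 8.85, 8.32, 8.45 and 8.62 at day 6. Within each day the KO arrays lay above the wildtype arrays, although the genotypes overlapped over all days, since the lowest KO values, of day 6, fell below the highest wildtype value, of day 4. The difference was 1.12 ± 0.20 at day 6 (adjusted p = 2.36e-04), 0.92 ± 0.29 at day 4 (adjusted p = 0.0301), 1.17 ± 0.29 at day 2 (adjusted p = 0.00571) and 1.07 ± 0.15 over their mean (adjusted p = 8.20e-06). The call of day 4 ended with median scaling (adjusted p = 0.324), without wildtype replicate 2 (0.286) and without KO replicate 1 (0.0564) or 2 (0.216). That of day 2 ended with median scaling (0.162) and without KO replicate 1 (0.0610).

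Probes 2 and 3 (ILMN_2690755 and ILMN_2690756), annotated to the Mtf1 reference transcript, were near the background. The detected arrays numbered 4 in wildtype and 5 in KO for probe 2, and 2 and 3 for probe 3. Their day 6 differences were -0.14 ± 0.25 (adjusted p = 0.790) and -0.04 ± 0.26 (adjusted p = 0.946), and neither passed the threshold on another day. The higher Mtf1 signal in KO rests on the clone probe alone, and where in the gene that probe lies was not examined.

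Slc30a1, the exporter that MTF1 is known to switch on, did not pass the test in any comparison. Its single probe (ILMN_1224883) was dim but detected on all 18 arrays, from 5.26 to 6.08 (median 5.57) in wildtype and from 5.20 to 6.47 (median 5.75) in KO. The genotypes overlapped. The differences were 0.24 ± 0.24 at day 6 (adjusted p = 0.585), 0.31 ± 0.34 at day 4 and -0.17 ± 0.34 at day 2. At day 0 the lone KO array read 6.41 and the lone wildtype array 5.28.

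The importers Slc39a14 and Slc39a8 were lower in KO, from low signals. ZIP14, the product of Slc39a14, carries zinc, manganese and iron that is not bound to transferrin. Its probe 2 (ILMN_1214514) read 6.09 at day 0, 5.58 and 5.25 at day 2, 5.48 and 5.63 at day 4, and 5.84, 5.72, 5.74 and 5.55 at day 6 in wildtype. In KO it read 5.44 at day 0, 4.23 and 4.32 at day 2, 4.30 and 4.34 at day 4, and 4.21, 4.41, 4.51 and 4.82 at day 6. It was detected on 9 wildtype arrays and on 2 KO arrays, those of day 0 and of day 6 replicate 4. At day 6 the difference was -1.22 ± 0.19 (adjusted p = 4.96e-05). This probe was at least 1.80-fold lower at day 4 (adjusted p = 0.00259) and at least 1.73-fold lower at day 2 (adjusted p = 0.00459), where no KO array detected it. These sizes rest on the background correction, since without it the fold was 1.25 at days 6 and 4 and 1.24 at day 2, with the calls kept. Median scaling ended the calls of day 4 (0.0914) and day 2 (0.0925), and the call of day 2 also ended without wildtype replicate 1 (0.0647).

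Probe 1 of Slc39a14 (ILMN_2711839) differed in the same direction. It ran from 5.47 to 6.38 (median 5.91) on 9 wildtype arrays, all detected, and from 4.44 to 5.80 (median 5.13) on 9 KO arrays, of which 6 were detected. The highest KO value was the array of day 0, which lay beside its wildtype counterpart at 5.91. The difference was -0.89 ± 0.25 at day 6 (adjusted p = 0.0106), -1.20 ± 0.36 at day 4 (adjusted p = 0.0225), -0.95 ± 0.36 at day 2 (adjusted p = 0.0729) and -1.01 ± 0.19 over their mean (adjusted p = 1.87e-04). Without background correction the fold was 1.19 at day 6, 1.28 at day 4 and 1.197 at day 2, in place of 1.86, 2.30 and 1.93. The call of day 6 ended without wildtype replicate 3 (0.0501). It also ended within the first set, which holds 1 array per genotype at day 6, where the difference was -1.17. That of day 4 ended with median scaling (0.158), with no filter on dim probes (0.0501) and without wildtype replicate 1 (0.174) or KO replicate 1 (0.143) or 2 (0.0565). Without KO replicate 2 of day 2 the difference of that day passed (-1.40, adjusted p = 0.0295).

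ZIP8, the product of Slc39a8, is the closest relative of ZIP14 and carries zinc, manganese and cadmium. Probe 1 of Slc39a8 (ILMN_2719513) read 6.08 at day 0, 5.70 and 5.24 at day 2, 4.92 and 5.07 at day 4, and 5.69, 5.41, 5.08 and 4.78 at day 6 in wildtype, where 8 of 9 arrays detected it. On the 9 KO arrays it ran from 4.14 to 4.52 (median 4.26) and was never detected, so it entered the test through the wildtype arrays alone. The genotypes did not overlap, with a gap of 0.26. At day 2 the gene was at least 1.80-fold lower in KO (adjusted p = 0.00255) and at day 6 at least 1.61-fold (adjusted p = 0.00244), while day 4, at least 1.22-fold, did not pass (adjusted p = 0.0886; 0.0453 with the processing set as a block). Without background correction the fold was lower than these bounds, 1.37 at day 2, 1.18 at day 6 and 1.17 at day 4. The call of day 2 ended without wildtype replicate 1 (0.0503). Probe 2 (ILMN_2729683) was detected on 0 of 18 arrays and was not tested.

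Slc39a6 encodes ZIP6, an importer at the plasma membrane. Its probe (ILMN_2681516) was bright on all arrays, from 10.45 to 11.18 (median 10.81) in wildtype and from 10.16 to 10.83 (median 10.41) in KO. The ranges overlapped, and at day 0 the arrays were alike, at 10.84 and 10.79. The difference at day 6 was small, -0.44 ± 0.14 (1.35-fold, adjusted p = 0.0250). It no longer passed within the second set (0.0711) or with median scaling (0.259). The same held without KO replicate 1 (0.0726) or 2 (0.0710) or wildtype replicate 2 (0.105) or 4 (0.0674). Nor did it pass within the first set, which holds 1 array per genotype at day 6, where the difference was -0.39. Days 4 and 2 did not pass, at -0.27 ± 0.20 (adjusted p = 0.424) and -0.39 ± 0.20 (adjusted p = 0.207; 0.0338 within the first set). Over the mean of the 3 days it was -0.37 ± 0.10 (adjusted p = 0.00868; 0.0547 with median scaling).

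**Figure D3:**
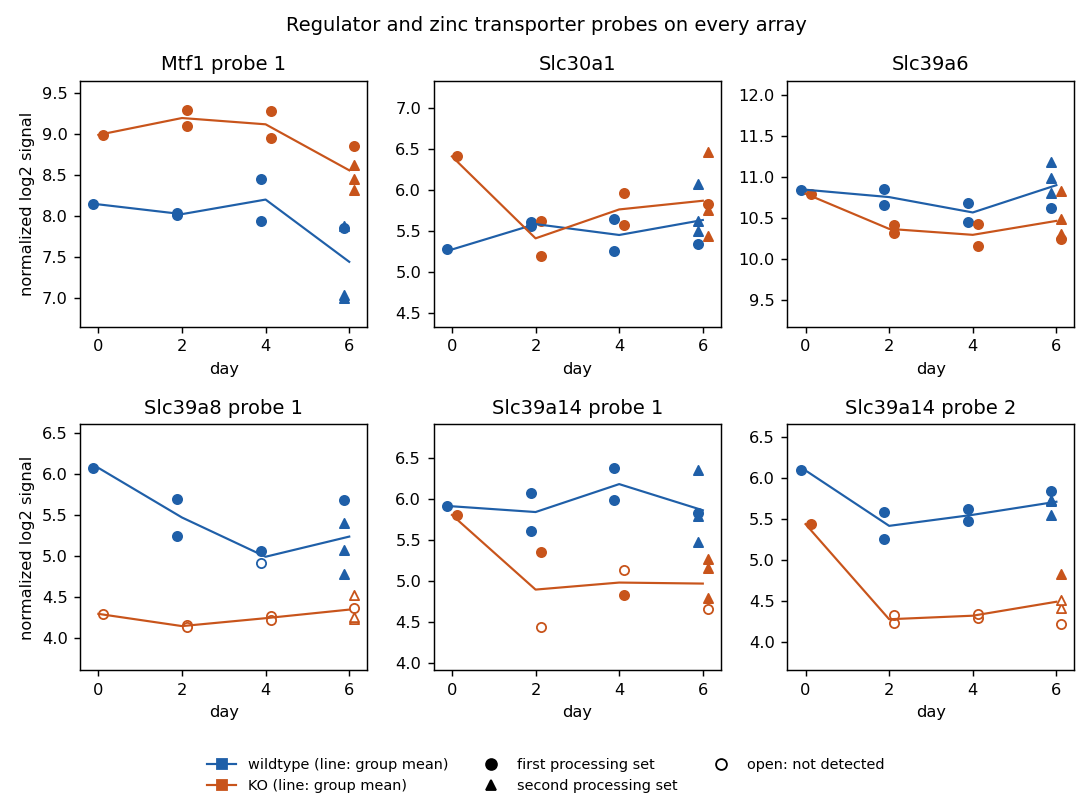
Normalized log2 signal (vertical axes, each spanning 3 log2 units) by day (horizontal axes) for Mtf1 probe 1 and 5 zinc transporter probes on each of 18 arrays, with lines through group means, triangles for the second processing set and open symbols where a probe was not detected. Mtf1 probe 1 is higher in KO within each day, Slc39a8 probe 1 is detected on 0 KO arrays, and Slc30a1 overlaps between genotypes.

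Apart from Mt2, 9 probes of these genes were tested between the genotypes. At day 6, 6 of the 9 passed an adjusted p of 0.05, 1 higher in KO and 5 lower, against 26.8% of all 26407 probes (13.9% higher and 12.9% lower). At day 4, 4 of 9 passed (1 higher, 3 lower) against 17.7%, at day 2, 4 of 9 (1 higher, 3 lower) against 18.7%, and over the mean of the 3 days 6 of 9 (1 higher, 5 lower) against 36.6%. The median difference of the 9 probes was -0.44 at day 6, -0.27 at day 4 and -0.39 at day 2, where that of all probes was 0.02 on each day. Of the 10 probes, 3 (Mt1, Mt2 and Slc39a8 probe 1) did not overlap between the 9 wildtype and the 9 KO arrays, against 11.7% of all probes. Since the genes were listed with results known and Slc39a8 entered through wildtype arrays alone, these counts describe the list and support nothing further.

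**Figure D4:**
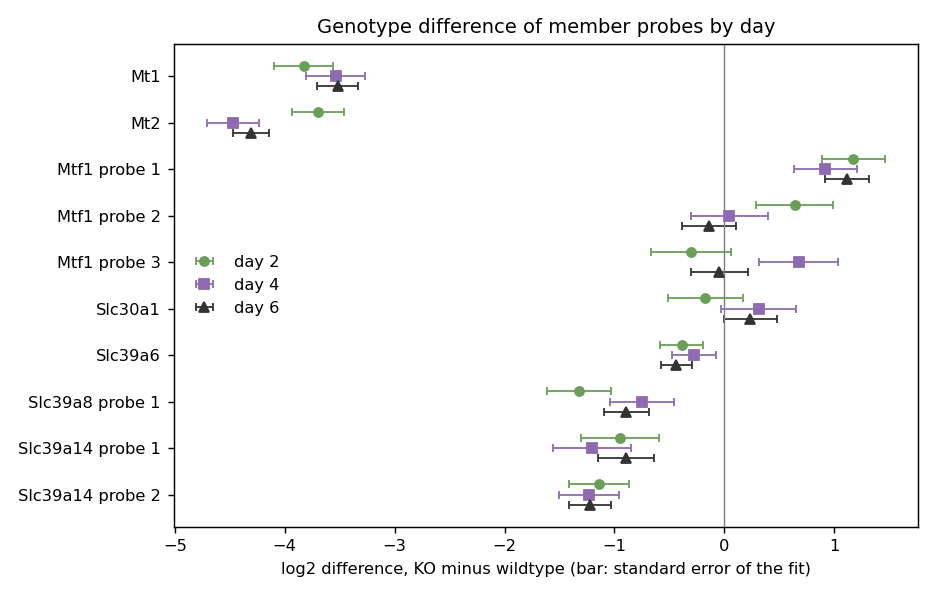
Log2 difference, KO minus wildtype (horizontal axis; bars are standard errors of the fit), of the 10 measured probes (vertical axis) at day 2 (circles), day 4 (squares) and day 6 (triangles). Mt1 and Mt2 lie between -4.47 and -3.52, Mtf1 probe 1 between 0.92 and 1.17, and the Slc39a6, Slc39a8 and Slc39a14 probes below 0 on each day.

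Few of these probes passed the test between days. Between day 0 and day 2, in the mean of both genotypes, 1 of 10 probes passed, against 9.61% of all probes. This was Slc39a14 probe 2, lower at day 2 (-0.92 ± 0.23, at least 1.68-fold, adjusted p = 0.0172), where the lone arrays of day 0 were taken to vary as the replicated groups do. The call ended with median scaling (0.312), no filter on dim probes (0.0579) and without wildtype replicate 2 of day 2 (0.0594). Mt1 was at 0.23 ± 0.23 (adjusted p = 0.623) and Mt2 at 0.45 ± 0.20 (adjusted p = 0.187).

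Between days 2 and 4 none of the 10 probes passed by limma, nor did any other probe (0%). Of all probes 1153 had an unadjusted p under 0.05, fewer than the 1 in 20 that would have it with no change. Mt1 was at 0.04 ± 0.19 and Mt2 at 0.02 ± 0.17. Between days 2 and 6 none of the 10 passed, against 4.67% of all probes (1234, but 3 within the first set, 2 with the replicate number as a block and from 1 to 5682 when 1 array was left out), and 7297 of all probes had an unadjusted p under 0.05. Mtf1 probe 1 came closest, at -0.61 ± 0.18 (adjusted p = 0.0510). It passed without wildtype replicate 1 of day 6 (-0.68, adjusted p = 0.0126), without KO replicate 1 of day 6 (-0.66, 0.0136) and with no background correction (-0.43, 0.0446). Those 2 arrays are the only ones of day 6 in the first set. They read 7.85 in wildtype and 8.85 in KO. The second set read 7.04, 7.01 and 7.88 in wildtype and 8.32, 8.45 and 8.62 in KO. Over all alternatives the difference ran from -0.68 to -0.04, with an adjusted p of up to 0.934. Mt2 was at 0.26 ± 0.14 (adjusted p = 0.237) and passed with median scaling (0.75, adjusted p = 0.0346), a scaling that took the median of all probes from 0.01 to 0.36.

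Whether the genotype difference itself changed from day 2 to day 6 was tested as an interaction. None of the 9 probes other than those of Mt2 passed by limma, nor did any other (0%). Those at an unadjusted p under 0.05 numbered 1084, again fewer than 1 in 20 of all probes. For Mt1 the value was 0.31 ± 0.33 and for Mtf1 probe 1 -0.06 ± 0.35. For Mt2, given with no test, it was -0.61 ± 0.29.

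Other zinc transporters and metallothioneins were read to set the members beside the rest of the zinc system. Of 22 such genes, 18 were measured, each by its brightest probe. At day 6, 5 of the 18 were lower in KO and 0 higher, against 26.8% of all probes called, and the median of the 18 was -0.05. Beside Mt3 and Mt4 these were Slc30a4 (-0.996 ± 0.246, adjusted p = 0.00402), Slc30a6 (-0.45 ± 0.14, adjusted p = 0.0230) and Slc39a7 (-0.26 ± 0.10, adjusted p = 0.0457). Slc30a4, a transporter that fills vesicles with zinc, was detected on 2 KO arrays, none of them of day 6. Slc39a7 releases zinc from the endoplasmic reticulum. Mt3 passed the filter through wildtype arrays alone and the 5 are a description. Without background correction the fold of Slc30a4 was 1.19 in place of 1.99, and the brightest probe of Slc39a7 no longer passed (adjusted p = 0.0600). Of the 2 other probes of Slc39a7, with background correction, 1 was lower in KO (-0.43 ± 0.11, adjusted p = 0.00365) and 1 did not pass (-0.27 ± 0.22, adjusted p = 0.452). At day 4, 3 of the 18 were lower (Mt3, Mt4 and Slc39a3) and 1 higher (Slc30a8), against 17.7% of all probes called. At day 2 the same 3 were lower and 0 higher, against 18.7%. Slc30a8 was dim, with detection on 2 wildtype and 5 KO arrays. It was at 1.00 at day 4 (limma, adjusted p = 0.0206), 1.21-fold without background correction in place of 2.00-fold. It did not pass at day 2 (-0.26, adjusted p = 0.638) or day 6 (0.36, adjusted p = 0.245). The brightest probe of Slc39a3, an importer at the plasma membrane, was at -1.48 at day 4 (adjusted p = 0.0209) and -1.66 at day 2 (adjusted p = 0.00933). At day 6 it was at -0.54 ± 0.31 (adjusted p = 0.233). This probe was dim, with detection on 9 wildtype and 5 KO arrays. The other Slc39a3 probe was read at day 6 only, at 0.07 ± 0.32 (adjusted p = 0.932), so it does not bear on the calls of days 4 and 2. Without background correction the fold of the brightest Slc39a3 probe was 1.39 at day 4 and 1.40 at day 2. Mt4 no longer passed at day 4 without it (adjusted p = 0.0756).

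Metallothioneins also bind copper, and Slc39a14 and Slc39a8 also carry iron or manganese, so copper and iron genes were read beside them. All 13 were measured, and at day 6, 1 was higher and 3 lower by the brightest probe of each gene, with a median of 0.05, against 26.8% of all probes called (13.9% higher and 12.9% lower). The iron exporter ferroportin (Slc40a1) was higher in KO, from 8.92 to 9.87 against 7.17 to 8.24 in wildtype (1.45 ± 0.22, adjusted p = 2.95e-05). The brightest probe of the ferrireductase Steap3 was lower, from 5.21 to 5.77 against 7.14 to 7.70 (-1.92 ± 0.20, adjusted p = 2.18e-07), by 1.78-fold without background correction in place of 3.78-fold. Its other 2 probes, dimmer, did not pass (-0.10 ± 0.21 and -0.09 ± 0.23). For the ferroxidase ceruloplasmin (Cp) the brightest probe did not pass (0.22 ± 0.32), while 2 of its 3 other probes were higher (1.27 ± 0.32 and 0.82 ± 0.24). The brightest probe of the iron importer Slc11a2 was at -0.41 ± 0.14 (adjusted p = 0.0351). Of the 2 other Slc11a2 probes, 1 was lower (-1.14 ± 0.17, adjusted p = 3.72e-05) and 1 did not pass (-0.43 ± 0.20, adjusted p = 0.141). Ccs, the copper chaperone of superoxide dismutase, was at -0.42 ± 0.10 (adjusted p = 0.00389). The ferritin subunits Fth1 (-0.06 ± 0.09) and Ftl1 (0.05 ± 0.13), the transferrin receptor Tfrc (0.05 ± 0.19) and the copper chaperone Atox1 (0.05 ± 0.19) did not pass.

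**Figure D5:**
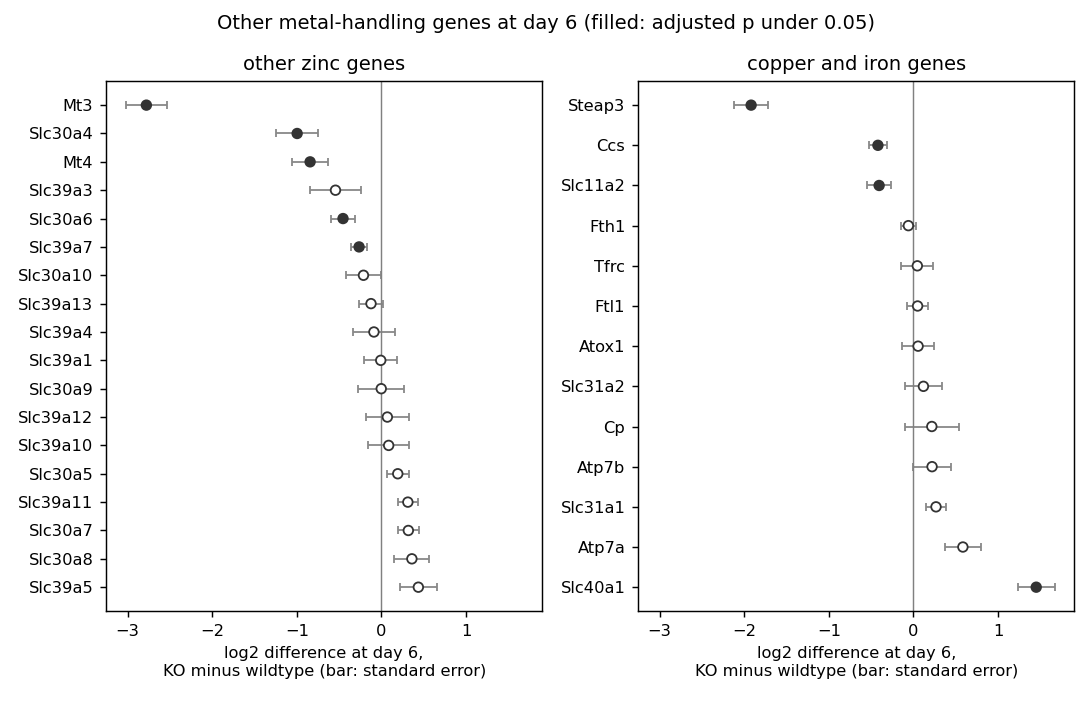
Log2 difference at day 6, KO minus wildtype (horizontal axes; bars are standard errors), for 18 other zinc genes (left) and 13 copper and iron genes (right), with filled points for an adjusted p under 0.05. Mt3 (-2.78, fitted against KO arrays without detection), Steap3 (-1.92) and Slc40a1 (1.45) lie farthest from 0.

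The genes whose pattern over the 18 arrays was most like that of Mt1 or Mt2 were found by the root mean square difference of log2 values, each gene centred on its own mean, among 13105 genes. For Mt1 these were Pdpn (0.28), Sytl2 (0.28), Osbpl6 (0.29), Ociad2 (0.30) and B4galnt1 (0.30), against a median of 1.85 over all genes. For Mt2 they were Msrb2 (0.30), B4galnt1 (0.31), Snord123 (0.32), Ptges (0.33) and Rbfox1 (0.33), against a median of 2.09. Mt1 and Mt2 differed from each other by 0.49, and Mt2 ranked number 61 for Mt1 and Mt1 number 33 for Mt2. The patterns are set mostly by the step between the genotypes, which all these genes share at -3.04 to -4.33 at day 6, and the arrays share their normalization.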

How the data were processed

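Per the file headers, the authors deposited a mean bead intensity and a detection p-value for each of 45121 probes on 18 arrays, with no normalization stated. The authors also deposited log2 values, which differed by at most 0.005 from quantile-normalized intensities on the log2 scale. The software behind these files is not given in the sources used here. Detection p-values were 1-sided on 12 arrays and 2-sided on 6, and the latter were converted to 1-sided values.

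The function neqc (offset 16) of limma 3.58.1 in R 4.3.3 removed the background and quantile-normalized the arrays. A probe counted as detected at a p-value under 0.01, and the 26407 probes detected on at least 2 arrays were tested. Of all probes 34763 had 1 gene symbol in the platform annotation, 18 several and 10340 none. All 18 arrays entered 1 linear model with a mean for each group (lmFit, eBayes with an intensity trend), 2-sided, with Benjamini-Hochberg adjustment over all probes of a comparison. Where no array of a group detected a probe, values below the lowest detected signal of each array were raised to it. The fold is then given as "at least", a bound that holds for background-corrected values. An undetected value can lie above that signal and was then kept. For Slc30a4 at day 6 the raising changed nothing, so its difference is given instead. The model fit alone was run on simulated normalized values with 200 changed probes. These were drawn with no processing sets, background or detection limit, so they do not bear on the dim probes here. Bead arrays give no counting depth, so precision is limited by how many there are and by the signal over background.

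The members and lists were chosen with earlier results of these data known. Every probe of the members is named. Other zinc, copper and iron genes are counted by their brightest probe, and those called at day 6 with at least 2-fold are named; the remaining names, and the neighbours of the metallothionein genes, were chosen after their values were seen. The labels number the replicates alike in both genotypes. Deviations of same-numbered arrays from their group means correlated at 0.55, 0.11, 0.24 and 0.15 at day 6, at 0.00 at day 2 and at -0.10 at day 4, and the replicate number was tried as a block. Other alternatives were the background correction, the scaling, the filter, 1 probe per gene, the processing set and leaving out arrays; for the other zinc, copper and iron genes the values without background correction were added after seeing the data. RefSeq tables (GRCm38.p6) gave gene order and promoters.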

Additional observations from a re-analysis of the deposited data

How the results depend on the processing

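Across all alternatives the 80 differences of single probes were recomputed 2050 times. Of these, 2008 kept their side of the threshold and any called direction, 28 lost a call and 7 gained one. Another 7, untested Mt2 values, moved by more than the spread and 0 reversed, while 74 values that were not called changed sign. Many alternatives, such as a filter or leaving out an array of another day, left the difference itself unchanged. They could alter a call only through its p-value, so the 2008 is no measure of how firm the differences are. Median scaling in place of quantile normalization gave 1 called member probe at day 4, 2 at day 2, 0 between days 0 and 2 and 1 between days 2 and 6. Between days 0 and 2 the count was also 0 with no filter on dim probes and with 1 probe per gene, and between days 2 and 6 it was 1 with no background correction. Leaving out 1 array at a time gave 2 to 4 called probes at day 4 (2 without KO replicate 1 or 2), 2 to 5 at day 2 (2 without wildtype replicate 1), 0 to 1 between days 0 and 2 (0 without wildtype replicate 2) and 0 to 1 between days 2 and 6 (1 without replicate 1 of day 6 of either genotype). Median scaling also called fewer of all probes, 4293 in place of 7079 at day 6, 1922 in place of 4667 at day 4, 2110 in place of 4927 at day 2, 6235 in place of 9660 over the mean and 304 in place of 2539 between days 0 and 2, but 4786 in place of 1234 between days 2 and 6. The share of these that were higher went from 51.0% to 37.6% at day 4, 50.8% to 30.995% at day 2, 52.6% to 37.8% over the mean, 52.2% to 77.3% between days 0 and 2 and 58.2% to 92.8% between days 2 and 6. The first set alone gave 4715 called probes at day 6. Between days 0 and 2 the set as a block gave 4088 and the first set alone 5014, and between days 2 and 6 they gave 2 and 3. Between days 2 and 6 the count was 103 with no filter, 670 for probes detected on at least 9 arrays, 600 with 1 probe per gene, 10 without KO replicates 2 and 4 of day 6, and 1 to 5682 when 1 array was left out, the highest 2 without replicate 1 of day 6 of either genotype. Leaving out 1 array gave 2959 to 5303 at day 4, 3092 to 5598 at day 2, 1533 to 3300 between days 0 and 2 and 0 to 5 for the interaction, where no filter gave 1 and the set as a block 2. With the replicate number as a block the member counts were 6 at day 6, 4 at day 4, 4 at day 2, 6 over the mean and 1 between days 0 and 2, and no call of a member changed. At day 4 the same-numbered arrays correlated below -0.1, and the pairing with the KO numbers crossed, added after seeing the data, gave 6, 4, 4 and 6 member probes and 5062 of all probes at day 4. The causes were not tested.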
